A study of Mus musculus with 64 samples.

Results

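The 78 genes described here encode nuclear subunits of the oxidative phosphorylation system, out of 17199 genes in 4 tables of mouse RNA-seq values. They were selected by gene symbol alone: Nduf followed by a, b, c, s or v and a digit (complex I), Sdha to Sdhd (complex II), Uqcr (complex III), Cox4 to Cox8 (complex IV) and Atp5 (complex V), without symbols containing -ps. Of these, 77 were found in prefrontal cortex and the same number in hippocampus, 78 in hypothalamus and 66 in whole blood. Complex I contributed 37 members in every brain region, complex II 4, complex III 8, complex IV 11 or 12 and complex V 17. In whole blood the counts were 27, 4, 8, 12 and 15. The animals were male BALB/c mice aged 28 weeks, either unstressed controls or mice exposed for 9 weeks to UCMS (Unpredictable Chronic Mild Stress), a paradigm of changing mild stressors used to model depression. Collection fell 14 to 16 hours past the final stressor, between ZT12.5 and ZT14.5, that is, shortly after lights off. Each brain region had 8 control and 8 UCMS libraries, and whole blood had 7 and 9. Each library started from 100 ng of RNA and was depleted of ribosomal RNA. Neither group carried a transgene or a drug according to the labels.

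Oxidative phosphorylation takes place in the inner mitochondrial membrane. Complexes I and II pass electrons from NADH and succinate to ubiquinone, complex III passes them on to cytochrome c, complex IV reduces oxygen, and complex V (ATP synthase) uses the proton gradient to make ATP. Neurons depend heavily on this pathway, whereas mature red cells have no mitochondria and reticulocytes lose theirs as they mature. The symbol rule also takes in genes that are not core subunits: Atp5s (now Dmac2l) and Atp5sl (now Dmac2, a complex I assembly factor), Cox7a2l, which helps to join complexes III and IV into supercomplexes, and Ndufa4l2, a paralog of Ndufa4. Ndufa4 itself, named for complex I, is now counted as a complex IV subunit. The subunits encoded in mitochondrial DNA were not analysed here, since 0 of them were found in the tables. Cox4i2, Cox6a2, Cox7a1 and Cox8b, isoforms known best from lung or muscle, were likewise not among the genes analysed.

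The promoters of these genes are known for binding sites of the nuclear respiratory factors NRF1 and GABPA (NRF2) and of YY1. RefSeq promoter windows (GRCm38.p6, 250 bases before to 50 bases after the annotated start) were matched for 66 of the 78 members. A gene with more than 1 window was counted for a motif if any of its windows held it. The NRF1 motif (GCGCA, any base, then GCGC) was found on either strand in 17 of 66 members (25.8%), against 5.19% of 27025 genes with a window and 10.8% of those in the hippocampus table. The YY1 motif AANATGGC was found in 18 members (27.3%), against 6.96% and 9.39%. The GABPA motif CCGGAAG was found in 16 members (24.2%), against 9.93% and 18.5%. The SP1 motif GGGCGG was found in 27 members (40.9%), against 38.2% of all genes with a window and 68% of those in the hippocampus table. At least 1 of the NRF1, GABPA and YY1 motifs lay in 44 of 66 members (66.7%), against 33.1% of the hippocampus genes. These matches are descriptions of letters in a window and carry no measurement of binding.

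The windows printed here belong to 5 of the 6 members with an unadjusted p under 0.05 for stress in a single tissue. Cox6c is the other. They are printed 5′ to 3′ on the strand of the gene, in lower case, with matches to the 4 motifs or their reverse complements in capitals. For a gene with more than 1 window, the window with the most NRF1, GABPA and YY1 matches was chosen.
Atp5c1 promoter, chr2:10080383-10080682, - strand: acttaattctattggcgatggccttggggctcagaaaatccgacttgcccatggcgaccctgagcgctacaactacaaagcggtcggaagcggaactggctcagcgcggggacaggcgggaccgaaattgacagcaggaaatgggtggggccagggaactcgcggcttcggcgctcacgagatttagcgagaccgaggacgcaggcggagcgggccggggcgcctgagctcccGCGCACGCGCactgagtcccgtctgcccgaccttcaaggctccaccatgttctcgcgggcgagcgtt
Cox8a promoter, chr19:7217567-7217866, - strand: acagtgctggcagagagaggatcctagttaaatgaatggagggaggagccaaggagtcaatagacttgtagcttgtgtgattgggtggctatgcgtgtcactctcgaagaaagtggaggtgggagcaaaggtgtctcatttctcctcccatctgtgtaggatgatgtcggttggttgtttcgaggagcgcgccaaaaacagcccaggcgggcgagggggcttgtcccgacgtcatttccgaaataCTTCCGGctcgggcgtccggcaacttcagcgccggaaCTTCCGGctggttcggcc
Cox7b promoter, chrX:106015450-106015749, + strand: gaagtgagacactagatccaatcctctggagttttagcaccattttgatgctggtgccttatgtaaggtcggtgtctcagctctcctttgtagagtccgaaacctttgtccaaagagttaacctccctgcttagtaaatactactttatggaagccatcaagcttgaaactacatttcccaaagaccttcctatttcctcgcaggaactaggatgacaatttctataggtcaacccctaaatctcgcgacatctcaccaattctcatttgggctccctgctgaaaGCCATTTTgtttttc
Atp5b promoter, chr10:128083057-128083356, + strand: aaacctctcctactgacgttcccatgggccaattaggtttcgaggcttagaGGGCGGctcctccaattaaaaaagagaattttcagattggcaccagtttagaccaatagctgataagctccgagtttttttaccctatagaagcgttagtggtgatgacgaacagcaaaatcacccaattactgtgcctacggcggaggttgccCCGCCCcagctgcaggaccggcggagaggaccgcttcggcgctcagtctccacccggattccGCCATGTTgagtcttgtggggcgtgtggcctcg
Atp5e promoter, chr2:174464052-174464351, - strand: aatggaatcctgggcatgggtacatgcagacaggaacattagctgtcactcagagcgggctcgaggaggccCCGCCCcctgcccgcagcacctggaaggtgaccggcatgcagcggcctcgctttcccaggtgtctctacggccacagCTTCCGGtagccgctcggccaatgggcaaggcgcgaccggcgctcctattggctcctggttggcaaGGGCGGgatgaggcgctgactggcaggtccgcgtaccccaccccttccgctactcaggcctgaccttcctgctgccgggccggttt
In Atp5c1 the capitals mark 1 NRF1 match that began at -17 from the start site. In Cox8a they mark 2 GABPA matches on the opposite strand, the first beginning at -5 and the other at 32 from the start. Cox7b held 1 YY1 match, 35 bases after the start, and Atp5b 1 YY1 match, 17 bases after it, with 2 SP1 matches. Atp5e held 1 GABPA match, beginning at -102, and 2 SP1 matches. Cox8a and Atp5e thus shared GABPA, Cox7b and Atp5b shared YY1, and Atp5b and Atp5e shared SP1. No motif was common to all 5 windows.

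The values are the authors' normalized read counts on a log2 scale, and the depth of each library is unknown from them. The tables of the 4 tissues were normalized separately, so levels set across tissues are given without a test. All 10 neuronal markers were present in each brain region, against 2 of 10 in whole blood. The blood table held 8 of 8 platelet, 7 of 7 T cell and 6 of 8 red cell markers. In 9 of 48 brain libraries the level of Hbb-bs, a beta globin gene, was above 12 (lowest 14.0, next library 9.63). They were control 1 and UCMS 6 in prefrontal cortex, controls 1 and 7 and UCMS 6 in hippocampus, and controls 1 and 7 and UCMS 6 and 8 in hypothalamus.

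The libraries hippocampus UCMS 3, prefrontal cortex UCMS 5 and whole blood control 2 stood apart by the GC content of the transcripts, and each came from a different animal. In hippocampus UCMS 3, the 25% of all genes with the most GC-rich transcripts had a median deviation of 0.37 from their means over libraries, and the most GC-poor 25% one of -0.42. In prefrontal cortex UCMS 5 these medians were 0.41 and -0.41, and in whole blood control 2 they were 0.50 and -0.53. In the other libraries of those tissues no such median was beyond 0.17 in size. The members followed: hippocampus UCMS 3 was the lowest of 16 libraries for 25 of the 76 members tested and the highest for 26. The members for which it was lowest had a median transcript GC content of 48.0%, and those for which it was highest 54.3%. Prefrontal cortex UCMS 5 was lowest for 22 and highest for 31 members, with 48.2% and 53.9%. The counts of lower or higher members in a tissue are therefore also given without these libraries.

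**Figure D1:**
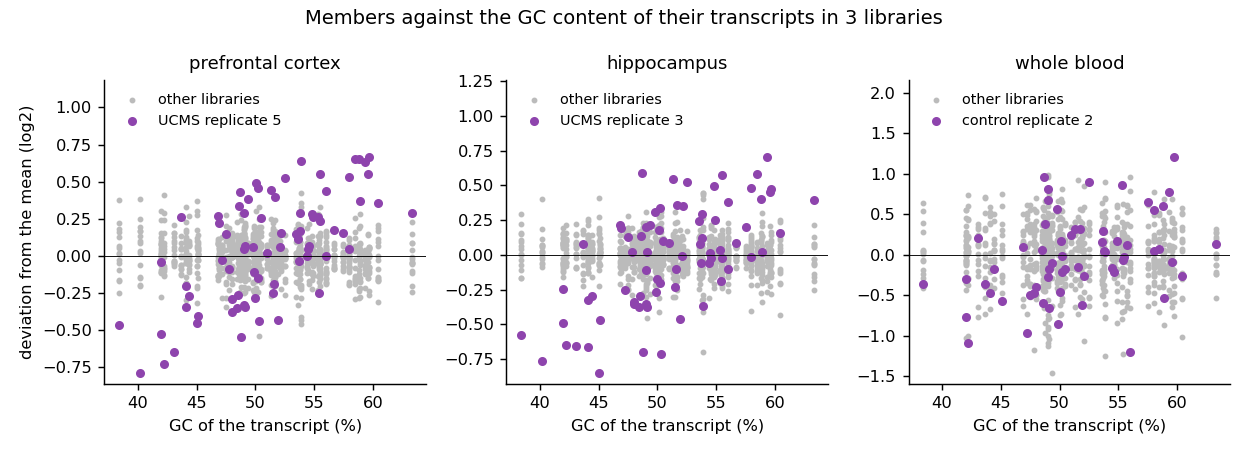
Deviation of each tested member from its mean over the libraries of a tissue (log2, vertical axis) against the GC content of its longest coding transcript (percent, horizontal axis), with 1 library in purple and the others in grey. In each of the 3 purple libraries GC-poor members lie mostly below 0 and GC-rich members mostly above it.

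Across brain regions most members had their highest control level in hypothalamus and their lowest in prefrontal cortex. The control mean was higher in hypothalamus than in prefrontal cortex for 73 of 77 members, by a median of 0.35, and for 65.7% of all genes, by a median of 0.13. Hippocampus lay above prefrontal cortex for 73 of 77 members (59.9% of all genes), and hypothalamus above hippocampus for 68 of 77 (62.6%). All 4 members of complex II were higher in hypothalamus than in prefrontal cortex, by a median of 0.45, next to 0.43 for complex I and 0.29 for complex III. Sdha, the flavoprotein subunit that oxidizes succinate, stood at 7.42 ± 0.11 (SD, n = 8) in hypothalamus, 7.09 ± 0.047 in hippocampus and 6.96 ± 0.037 in prefrontal cortex. The exceptions included Cox8a, a small complex IV subunit, which stood at 9.20, 9.38 and 9.40 in the same order. All 65 members found in both tables were lower in blood than in prefrontal cortex, by a median of 2.95. Over all genes 86.2% were lower, and the median step was 1.25. Fewer cells of a type and less RNA per cell cannot be told apart in these bulk samples.

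The genes Atp5g1, Atp5g2 and Atp5g3 encode the same mature c subunit of the ATP synthase rotor, and their steps between tissues differed. Atp5g3 stood at 7.22 ± 0.12 in hypothalamus, 7.46 ± 0.065 in hippocampus and 7.24 ± 0.13 in prefrontal cortex. Atp5g1 stood in that order at 5.14 ± 0.13, 4.77 ± 0.063 and 4.83 ± 0.10, and Atp5g2 at 5.16 ± 0.20, 4.93 ± 0.13 and 4.89 ± 0.13 (SD, n = 8 for all). In whole blood Atp5g2 stood at 4.14 ± 0.20 and Atp5g3 at 3.25 ± 0.28 (SD, n = 7). The step from brain to blood was thus far wider for Atp5g3 than for Atp5g2. Atp5g2 shares 38.3% of its 50-base stretches with transcripts of other genes and Atp5g1 11.1%, against 0% for Atp5g3. Reads of Atp5g1 and Atp5g2 may therefore be split among copies. Of the isoform pairs, Cox6a1, Cox7a2 and Cox8a were found in every tissue. Ndufa4l2 was found in the 3 brain regions at control means of 2.97, 2.98 and 3.13, among the 10% of genes left out for low values, and was not tested.

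The members varied less from library to library than the median of all genes, and were correlated more than the average pair of genes. The median SD within groups was 0.12 for members in hypothalamus, 0.13 in hippocampus and 0.14 in prefrontal cortex, against 0.17, 0.17 and 0.20 for all genes tested. In whole blood it was 0.35 against 0.39. By control level the median member stood at percentile 89.9, 87.3 and 85.6 of the genes in these brain regions, and 49.6 in blood. The SDs are thus not set against genes of like level. Atp5k, a small subunit that stabilizes ATP synthase dimers, was the most variable member in each brain region (SD 0.38, 0.36 and 0.35). The mean pairwise correlation between members, over 16 libraries after removal of group means, was 0.43 in hypothalamus, 0.18 in hippocampus, 0.13 in cortex and 0.12 in blood. Over all genes tested the same mean was 0.03, 0.01, 0.01 and 0.00083. Other lists were as high or higher in some tissues: in prefrontal cortex mitochondrial ribosomal proteins had 0.15, glycolysis enzymes 0.37 and cytosolic ribosomal proteins 0.45. The last list had 0.29 in hippocampus, 0.30 in hypothalamus and 0.36 in blood. These correlations share libraries, normalization and transcript composition, and are given as descriptions. The 11 members of complex IV in hypothalamus had a mean of 0.66, or 0.53 without control 5. Without the library that stood apart by GC, the mean was 0.31 in hippocampus and 0.20 in prefrontal cortex. There complex I reached 0.42 and 0.29, and complex II of hippocampus 0.58. In hypothalamus the mean over all members was 0.38 without control 5, the library with the highest member level.

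**Figure D2:**
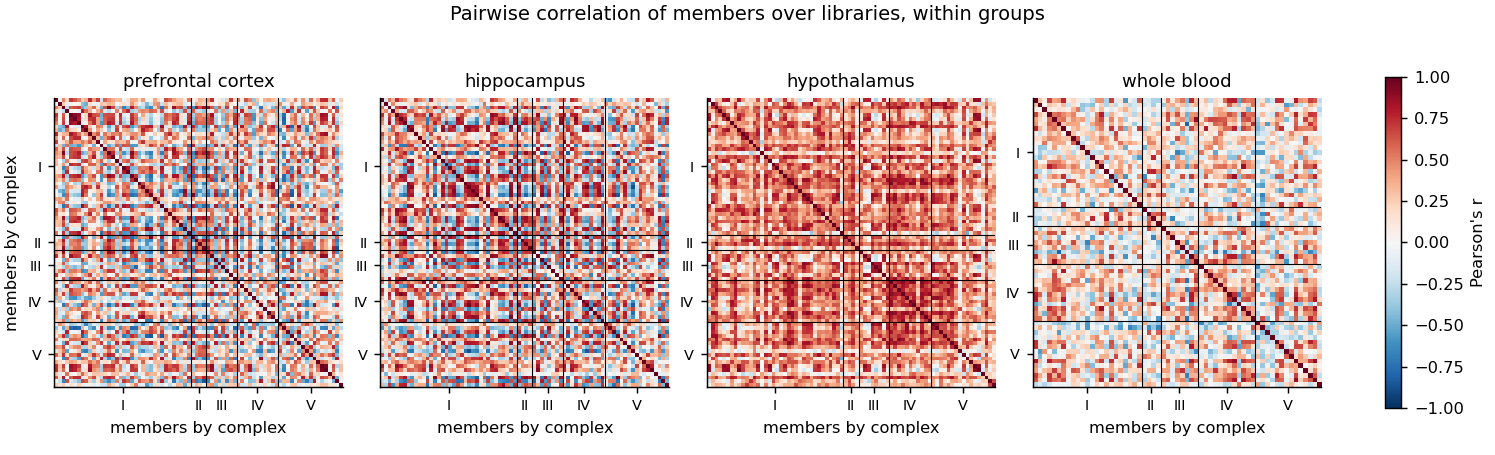
Pearson's r between every pair of tested members over the libraries of a tissue, after removal of group means, with members ordered by complex I to V and black lines between complexes. Positive values (red) fill most of the hypothalamus panel, where the mean is 0.43, and complex IV has a mean of 0.66 there (0.53 without control 5).

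The design asks how each tissue of the UCMS mice differs from that of controls. At an adjusted p under 0.05 (limma, Benjamini-Hochberg over all genes tested) no gene was called in any tissue, 0% of 14127 for prefrontal cortex, of 14015 for hippocampus, of 14539 for hypothalamus and of 7947 for blood. At an unadjusted p under 0.05 the numbers of genes were 308, 414, 308 and 859. By direction, 1.2% were lower and 0.977% higher in prefrontal cortex, and 1.28% and 1.67% in hippocampus. The shares were 1.17% and 0.949% in hypothalamus and 4.33% and 6.48% in blood. Those of the brain regions are below what such a threshold passes on average where no gene differs. No member had control and UCMS values that did not overlap; the share of genes without overlap was 0% in every brain region in either direction, and in blood 0% lower and 0.0252% higher. Differences are given in log2 units as UCMS less control, and none passed the adjusted test.

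In hippocampus most members had a lower mean in UCMS, by small amounts. The mean was lower for 61 of 76 members tested (49.9% of all genes) and higher for 15 (50.1%), with a median difference of -0.048 against 0.00038. By complex, 29 of 36 members of complex I were lower, 3 of 4 of complex II, 5 of 8 of complex III, 8 of 11 of complex IV and 16 of 17 of complex V. Without UCMS 3, 71 of 76 were lower at a median of -0.050, against 49.8% of all genes. The numbers by complex were then 34 of 36, 4 of 4, 6 of 8, 11 of 11 and 16 of 17. Without the 3 hemoglobin-rich libraries the share was 75% and the median -0.049. The median stayed below 0 in each of 27 alternative settings, from -0.071 to -0.037. Since members move together across libraries, such a count does not stand for independent genes.

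The library means show how far the groups overlapped. The mean deviation of the 76 members from their own means over libraries ran from -0.12 to 0.11 in hippocampus controls (median 0.023) and from -0.080 to 0.069 in UCMS (median -0.046). It was below 0 in 2 of 8 control and 6 of 8 UCMS libraries. Control 8, at -0.12, was the lowest of all 16 and had 82.9% of members below their mean, whereas UCMS 5 and UCMS 4 lay above 0. All 8 UCMS libraries lay within the range of the controls. The difference between the group means, 0.024 against -0.024, was thus smaller than the spread within either group (SD 0.071 and 0.053).

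**Figure D3:**
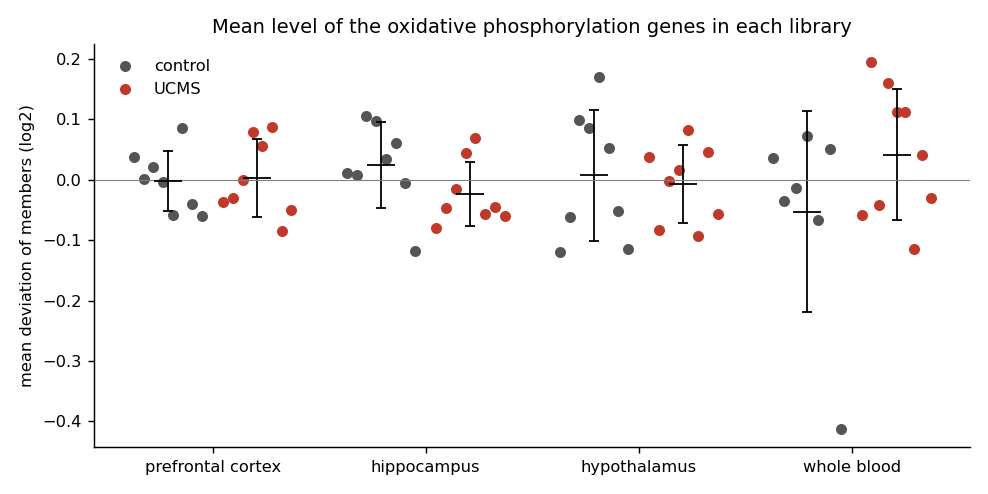
Mean deviation of all tested members from their own means over the libraries of a tissue (log2), 1 point a library, with the group mean (horizontal bar) and SD (whiskers); n is 8 and 8 in the brain regions and 7 and 9 in whole blood. The groups overlap in every tissue, and whole blood control 7 lies at -0.41, below all others.

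Of the respiratory complexes, complex IV held the hippocampal member with the smallest p. Cox6c (chr15:35925886-35938246, GRCm38, - strand), a small subunit of cytochrome c oxidase, ran from 7.34 to 7.55 in controls with a median of 7.41, and from 7.13 to 7.44 in UCMS with a median of 7.33. UCMS libraries 1, 2, 3 and 6 lay below the lowest control, the other 4 lay within the control range, and 7 of 8 lay below the control median. Its difference was -0.12 (SE 0.046, 95% interval -0.22 to -0.025), a change of -8.11%. The limma p was 0.0165 before and 0.990 after adjustment, and the exact permutation p was 0.00761. Without UCMS 3, its lowest library, the difference was -0.095. Cox7b, another small subunit, had a difference of -0.098 (interval -0.22 to 0.019), and -0.070 without UCMS 3. Cox5a, which binds near the heme-bearing core, and Cox7a2 had -0.086 and -0.10, and without UCMS 3 -0.041 and -0.044. Cox4i1, the largest nuclear subunit, had -0.043 (interval -0.14 to 0.055). Cox8a was at 0.065, with UCMS 3 as its highest library, and at -0.014 without it.

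Complex V held the other hippocampal member with an unadjusted p under 0.05, so that 2 of 76 members were lower at that level (2.63%, against 1.28% of all genes) and 0 were higher (1.67%). Without UCMS 3 there were 3 such lower members of 76, these and Ndufv1 of complex I, against 268 of 14015 genes tested. Atp5c1 (chr2:10056016-10080510, GRCm38, - strand), whose promoter is printed above, encodes the gamma subunit, the central shaft of the rotor. It ran from 5.99 to 6.12 in controls (median 6.07) and from 5.82 to 6.10 in UCMS (median 5.99). UCMS 3 was again the lowest library, and 7 of 8 UCMS libraries lay below the control median, with overlapping ranges. The difference was -0.090 (SE 0.041, 95% interval -0.18 to -0.0043), with an exact permutation p of 0.0129 and an adjusted limma p of 0.990. Without UCMS 3 it was -0.067. The catalytic subunits had smaller differences: Atp5a1 (alpha) had a difference of -0.011 (interval -0.087 to 0.066) and Atp5b (beta) of -0.022 (interval -0.096 to 0.051). The rotor genes Atp5g1, Atp5g2 and Atp5g3 had differences of -0.014, -0.0045 and -0.017, and without UCMS 3 of -0.046, -0.061 and -0.032. Within the complex the differences ran from -0.16 for Atp5k to 0.051 for Atp5d, the delta subunit. Without UCMS 3 Atp5k was at -0.12 and Atp5d at -0.046, and the range of the complex ended at 0.017.

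In complex I, Ndufc1, an accessory subunit of the membrane arm, had the lowest difference, 6.01 ± 0.14 in controls against 5.82 ± 0.25 in UCMS (SD, n = 8 each). The difference was -0.19 (interval -0.39 to 0.010), and -0.11 without UCMS 3, which lay at 5.25 with the next library at 5.79. Ndufv1, which binds NADH and the flavin cofactor, had -0.048 with all libraries and -0.064 without UCMS 3. Ndufs1, the largest iron-sulfur subunit, stood at 5.51 ± 0.047 in controls and 5.45 ± 0.18 in UCMS, a difference of -0.062 that was 0.00068 without UCMS 3. Ndufa4, now placed in complex IV, had -0.077, and Ndufb4 was the highest of the group at 0.035. Without UCMS 3 they were at -0.035 and -0.012, and the highest of complex I was Ndufc2 at 0.019. In complex II the differences ran from -0.048 for Sdha to 0.057 for Sdhc, a membrane anchor, with Sdhb, the iron-sulfur subunit, at -0.016. Without UCMS 3 Sdha was at -0.0094, Sdhc at -0.023 and Sdhb at -0.053, and all 4 members were below 0. In complex III they ran from -0.14 for Uqcrb to 0.080 for Uqcr10. Uqcrc1, a core subunit, was at 0.0031 and Uqcrfs1, the Rieske iron-sulfur protein, at 0.066. Without UCMS 3 Uqcrb was at -0.052, Uqcr10 at 0.0031, Uqcrc1 at -0.025 and Uqcrfs1 at 0.051. Uqcrb shares 43.4% of its 50-base stretches with transcripts of other genes, so its reads may be split among copies.

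**Figure D4:**
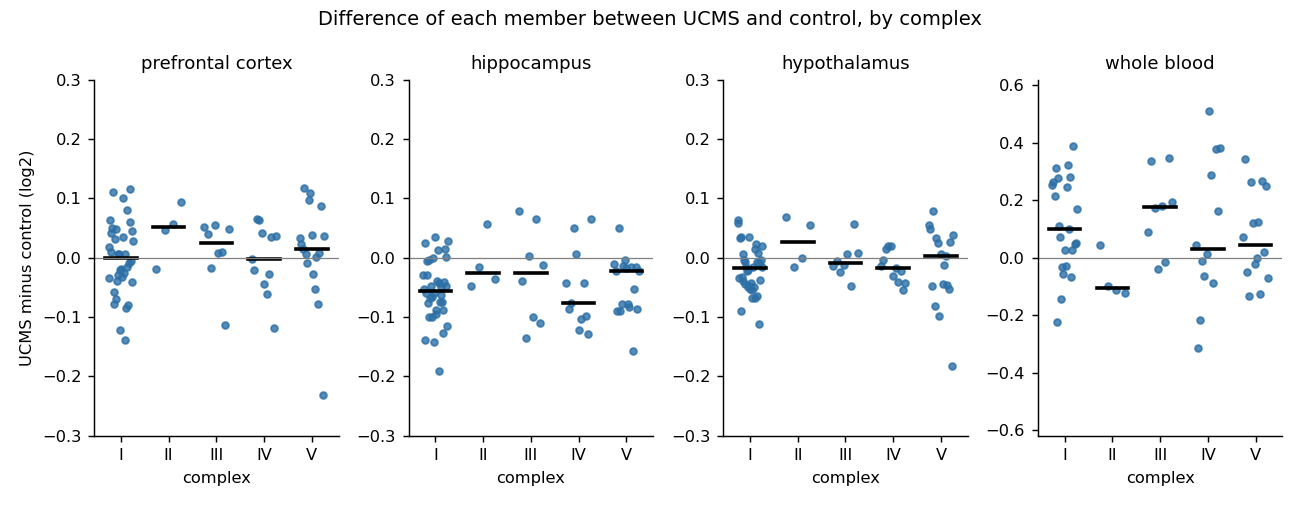
UCMS minus control difference (log2) of each tested member, 1 point a gene, grouped by complex I to V in each tissue, with the median of each complex. Hippocampal points lie mostly below 0 in complexes I and V, and whole blood points, drawn on a wider axis, run from -0.31 to 0.51.

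In prefrontal cortex the members were divided. The mean was lower in UCMS for 32 of 76 (48% of all genes) and higher for 44 (52%), with a median of 0.0082 against 0.0056. Without UCMS 5 the number was 36. For complexes I to V the members lower with all libraries were 18 of 36, 1 of 4, 2 of 8, 6 of 11 and 5 of 17. Without UCMS 5 they were 19, 0, 5, 7 and 5. No member had an unadjusted p under 0.05 (1.2% of all genes lower and 0.977% higher). Atp5s had the lowest difference, from 4.05 ± 0.18 in controls to 3.82 ± 0.30 in UCMS (SD, n = 8 each), or -0.23 (interval -0.48 to 0.023). UCMS 5 lay at 3.15, and without it the difference was -0.13. Uqcrh, the hinge protein of complex III, had -0.11 (interval -0.25 to 0.025), and Atp5g1 had 0.098 (interval -0.034 to 0.23). Without UCMS 5 these were -0.11 and 0.067. Cox6c had -0.044 with or without UCMS 5, and Atp5c1 had 0.015 and 0.037. Sdha was at -0.018 with all libraries and at 0.017 without UCMS 5, and Ndufs1 at -0.084 and -0.032. Complex I ran from -0.14 for Ndufc2 to 0.12 for Ndufs7, which carries the last iron-sulfur cluster before ubiquinone. Without UCMS 5 these genes were at -0.069 and 0.045, and the complex ran from -0.11 for Ndufa7 to 0.063 for Ndufs3.

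In hypothalamus the count of lower members varied with the library left out. The mean was lower for 49 of 76 members (49.5% of all genes) and higher for 27 (50.5%), at a median of -0.014. For complexes I to V the members lower were 26 of 36, 2 of 4, 5 of 8, 8 of 11 and 8 of 17. Without control 5 the mean was lower for 31 of 76, at a median of 0.0069, and the numbers by complex were 18, 1, 2, 3 and 7. Without control 1 it was lower for 77.6% of members, at a median of -0.032. Control 5 had the highest mean deviation of the 16 libraries, 0.17, and was the highest library for 36 members. Its summed level of 8 myelin markers, 12.05, was also the highest (the others ran from 10.55 to 11.80). This sum served as a covariate in an alternative fit described below. Over all alternatives the member median ran from -0.032 to 0.0069, and the part of myelin in the result was not otherwise tested. No member had an unadjusted p under 0.05 (1.17% of all genes lower and 0.949% higher). Atp5s again had the lowest difference, 4.01 ± 0.17 against 3.83 ± 0.23 (SD, n = 8 each), or -0.18 (interval -0.39 to 0.027). Ndufs6, a zinc-binding complex I subunit, had -0.11 and Atp5e, the epsilon subunit of ATP synthase, -0.081. Sdha was at 0.069 and Atp5d at 0.079, the highest of their complexes.

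The mean of the 3 brain regions was taken for each of 8 control and 8 UCMS animals. It was lower in UCMS for 49 of 76 members (49% of all genes) and higher for 27 (51%), at a median of -0.015. By complex, 29 of 36 members of complex I were lower, 0 of 4 of complex II and 4 of 8 of complex III. In complex IV 7 of 11 were lower, and in complex V 9 of 17. Without the animals of hippocampus UCMS 3 and prefrontal cortex UCMS 5, 85.5% of members were lower, at a median of -0.030. With 1 animal left out at a time the share lower ran from 53.9% without control 3 to 81.6% without UCMS 5, and the median from -0.033 without control 8 to -0.0040 without control 3. At an unadjusted p under 0.05, 2 of 76 members were lower (2.63%, against 2.13% of all genes) and 0 were higher (1.49%). Atp5s (chr12:69724950-69744660, GRCm38, + strand), a factor related to ATP synthase rather than a core subunit, ran from 3.95 to 4.24 in controls (median 4.10) and from 3.76 to 4.04 in UCMS (median 3.97). All 8 UCMS animals lay below the control median, and the ranges overlapped. Its difference was -0.17 (SE 0.052, interval -0.28 to -0.057), or -10.9%, with an exact permutation p of 0.00622 and an adjusted limma p of 0.959. Without those UCMS animals the difference was -0.12. Ndufb5 (chr3:32736990-32751566, GRCm38, + strand), a membrane arm subunit of complex I, ran from 6.06 to 6.17 in controls and from 6.01 to 6.11 in UCMS, a difference of -0.054 (interval -0.11 to -0.0011). All 8 UCMS animals were again below the control median. Its unadjusted limma p of 0.0458 became 0.118 without those animals, with a difference of -0.041.

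In whole blood more members had a higher than a lower mean in UCMS. The mean was higher for 40 of 61 members tested (48.5% of all genes) and lower for 21 (51.5%), at a median difference of 0.071 against -0.010. Complex I had 17 of 23 members higher (median 0.10), complex III 6 of 8 (0.18), complex IV 7 of 12 and complex V 9 of 14, whereas complex II had 3 of 4 lower. Without control 2, 43 of 61 were higher at a median of 0.060, and 2 of 4 in complex II were lower. Control 7 lay at a mean deviation of -0.41 with 90.2% of members below their own mean, and UCMS 2 was the highest at 0.19. Without these libraries 47.5% of members were lower and the median was 0.016. The mean deviations of the other 6 controls ran from -0.067 to 0.071, and those of the 9 UCMS libraries from -0.11 to 0.19.

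At an unadjusted p under 0.05, 5 of 61 members were higher (8.2%, against 6.48% of all genes) and 0 were lower (4.33%). Without control 2 the number higher was 6 of 61, against 427 of 7947 genes tested. Cox8a (chr19:7215153-7217616, GRCm38, - strand), a complex IV subunit with 2 GABPA matches in its promoter window, ran from 6.38 to 7.15 in controls (median 6.94) and from 6.87 to 7.59 in UCMS (median 7.27). UCMS 2, 4, 5, 6, 7 and 8 lay above every control, and UCMS 1, 3 and 9 within the control range. The difference was 0.38 (SE 0.14, interval 0.095 to 0.67), or 30.5%, with an exact permutation p of 0.00883 and an adjusted limma p of 0.430. Cox6c, which had the lowest p in hippocampus with the opposite sign, ran from 4.56 to 5.64 in controls (median 5.35) and from 5.22 to 6.15 in UCMS (median 5.88). The same 6 UCMS libraries lay above every control. Its difference was 0.51 (SE 0.19, interval 0.12 to 0.90), or 42.4%, with an exact permutation p of 0.0219 and an adjusted limma p of 0.430. With 1 library left out at a time the Cox6c difference ran from 0.40 without control 2 to 0.58 without UCMS 9.

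Cox7b (chrX:106015700-106022450, GRCm38, + strand) ran from 3.56 to 4.70 in controls and from 4.48 to 5.14 in UCMS, with a difference of 0.38 (interval 0.051 to 0.70) and 8 of 9 UCMS libraries above the control median. Control 7, at 3.56, was its lowest library, and without it the difference was 0.24. Atp5b (chr10:128083273-128090391, GRCm38, + strand), the catalytic beta subunit, ran from 5.88 to 6.57 in controls and from 6.41 to 7.53 in UCMS, a difference of 0.35 (interval 0.019 to 0.67). Without control 3, its lowest library, it was 0.26. Atp5e (chr2:174461072-174464105, GRCm38, - strand) ran from 4.76 to 5.06 and from 4.87 to 5.40, a difference of 0.26 (interval 0.013 to 0.51). The adjusted limma p of these genes was 0.458, and the ranges of the groups overlapped for each. Atp5a1, the alpha partner of Atp5b, had a difference of 0.071 (interval -0.18 to 0.32). Cox5a had the lowest difference, 4.64 ± 0.38 (n = 7) against 4.32 ± 0.51 (n = 9), or -0.31 (interval -0.76 to 0.14). Uqcrh had the highest of complex III at 0.35, Ndufs5 of complex I at 0.39 and Sdha of complex II at 0.043. Cox4i1 had 0.046, Ndufs1 0.28, Uqcrc1 -0.040 and Uqcrfs1 -0.015.

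Markers of blood cells also differed in mean. All 8 platelet markers were lower in UCMS, 7 of them at an unadjusted p under 0.05, and their summed level ran from 10.84 to 11.40 in controls and from 9.64 to 11.19 in UCMS. Of 6 red cell markers 5 were higher, with a summed level from 18.32 to 18.43 in controls and from 18.43 to 18.44 in UCMS. The same values recurred at the same ranks across blood libraries for 72.4% of ranks. A sum led by top-ranked genes can thus be held near a fixed value and need not follow red cell content. All 7 neutrophil and all 7 T cell markers tested were lower, as were 5 of 6 monocyte and 4 of 6 B cell markers, 1 of them (of monocytes) at an unadjusted p under 0.05. The summed neutrophil level went the other way by its median, 8.40 in controls and 8.56 in UCMS. With the red cell sum as a covariate, the median of the members was 0.11 and 21.3% were lower, with Cox7b at 0.36, Cox6c at 0.32, Cox8a and Atp5e at 0.23 and Atp5b at 0.10. Of the 5 genes, Cox7b had an unadjusted limma p under 0.05 in that fit (0.0496), and the other 4 had larger values. The red cell sum hardly varied in UCMS and scarcely overlapped the controls, so this fit cannot part it from treatment. The parts of red cells and platelets in the result were not tested.

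**Figure D5:**
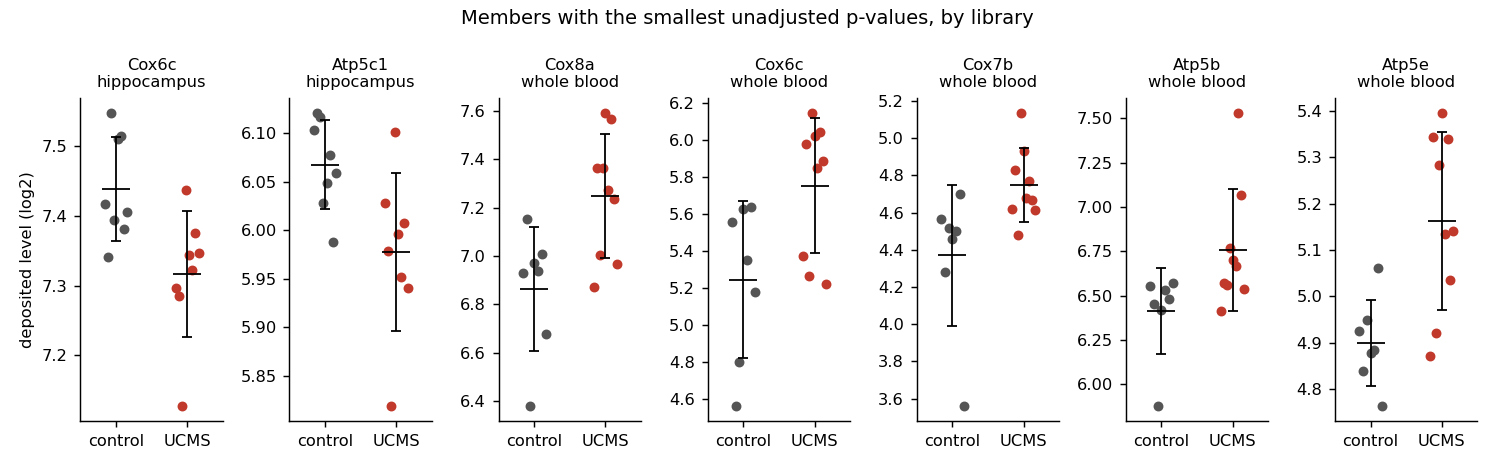
Log2 level of members with an unadjusted p under 0.05 in hippocampus or whole blood, 1 point a library, controls grey and UCMS red, with mean and SD (n = 8 and 8 in hippocampus, 7 and 9 in blood) and a separate axis for each gene. The groups overlap for every gene, and Cox8a and Cox6c in whole blood have 6 of 9 UCMS libraries above all controls.

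The UCMS differences of tissues were compared within animals, and 0% of genes passed the adjusted test in each. The hippocampal difference was more negative than that of prefrontal cortex for 64 of 76 members (50.7% of all genes), at a median of -0.056, and than that of hypothalamus for 55 of 76 (50.5%), at -0.041. Without the animals of the libraries that stood apart by GC these medians were -0.062 and -0.037. That of hypothalamus was more negative than that of prefrontal cortex for 46 of 76 (50.4%), at -0.020. Here Atp5g2 differed by -0.21 (SE 0.095), which did not pass the adjusted test, from 0.11 in prefrontal cortex to -0.098 in hypothalamus. Between whole blood and hippocampus, over 7 control and 8 UCMS animals, the difference was more negative for 17 of 60 members (48.2% of all genes) and more positive for 43, at a median of 0.13. Cox6c differed by 0.60 (SE 0.19) and Cox7b by 0.49 (SE 0.16), with adjusted limma p-values of 0.433 and 0.435. Uqcrh followed at 0.43, Cox7a2 at 0.41 and Atp5e at 0.34. In all, 5 of 60 members were more positive at an unadjusted p under 0.05 (8.33%, against 5.95% of all genes). At that level the more negative share was 0 of 60 members (3.96% of all genes). For hippocampus less prefrontal cortex it was 0 of 76 members in either direction (0.897% and 0.715% of all genes), and for hippocampus less hypothalamus also 0 of 76 (0.906% and 1.36%). For hypothalamus less prefrontal cortex 1 of 76 was more negative (1.37% of all genes) and 0 more positive (1.06%). The tables were normalized separately, which bears on each of these differences.

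Members with and without a promoter motif were set side by side by their UCMS difference. In hippocampus the median was -0.036 for 17 members with an NRF1 match and -0.060 for 48 without, -0.046 and -0.048 for GABPA, -0.054 and -0.048 for YY1, and -0.050 and -0.048 for SP1. In whole blood it was 0.0098 for 14 members with an NRF1 match and 0.11 for 36 without, 0.019 and 0.052 for GABPA, 0.052 and 0.043 for YY1, and 0.12 and 0.043 for SP1. These medians are descriptions without a test.

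Other genes of the pathway were read from curated lists. None passed the adjusted test. In hippocampus 10 of 13 complex I assembly factors had a lower mean, 19 of 31 assembly factors of complexes II to V, 47 of 77 mitochondrial ribosomal proteins and 14 of 18 genes of the tricarboxylic acid cycle, next to 49.9% of all genes. Without UCMS 3 these numbers were 8, 19, 50 and 12. Of 55 cytosolic ribosomal proteins, 33 were lower, and 49 without UCMS 3. Cox17, the copper chaperone of complex IV, had -0.16 and Coa3, a complex IV assembly factor, -0.13, while Tmem70, which helps to assemble ATP synthase, had 0.21. The regulators of mitochondrial biogenesis were divided, 6 lower and 8 higher, with Esrra, a nuclear receptor for such genes, at 0.13. In prefrontal cortex 55 of 77 mitochondrial ribosomal proteins were higher (43 without UCMS 5) and in hypothalamus 47 were lower (37 without control 5). In hypothalamus Gabpb1, a subunit of the GABP factor, had -0.17. Glycolysis enzymes, the other route to ATP, were higher for 16 of 17 in prefrontal cortex, 14 in hypothalamus and 12 in hippocampus. Without the library that stood apart the numbers higher were 16, 13 and 4, so that the hippocampal count turned on UCMS 3. In whole blood all 10 tested were lower, at a median of -0.27, among them Aldoa (-0.37), Pkm (-0.36) and Ldha (-0.26), which had unadjusted limma p-values of 0.0175, 0.0283 and 0.0356.

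Subunits that the symbol rule leaves out gave values of the same kind. In hippocampus 5 of 5 were lower, as were 5 of 5 for the mean of the brain regions, where Usmg5 and 2010107E04Rik, small proteins of ATP synthase, each had -0.14. In whole blood 3 of 4 were higher, with Atpif1, the inhibitor of ATP hydrolysis, at 0.49 and 2010107E04Rik at 0.46. Of the cell type markers in hippocampus, 5 of 10 for neurons were lower, with a summed level from 11.26 to 11.36 in controls and 11.18 to 11.36 in UCMS. All 7 microglial markers were higher, with C1qb at 0.26, and their sum ran from 8.63 to 8.88 and from 8.74 to 9.13. All 4 choroid plexus and all 4 red cell markers were lower, with sums that spanned several log2 units in both groups. The part of these cell types in the values of the members was not tested.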

How the data were processed

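RNA-seq values of 64 libraries from 17 mice (8 control and 9 UCMS) were used. The authors deposited 1 table a tissue, with normalized values on a log2 scale; per the submitters' processing notes the genome build was GRCm38.p4, while aligner and normalization method were not given in sources used here. The log2 scale was read from the values (0.035 to 19.8). The same values recurred at the same ranks across libraries for 72.4% to 89.4% of ranks (within 0.002), so total depth cannot be recovered. The highest correlation between libraries of a tissue was 0.988, and 0 were identical. Nothing in the labels ties replicate numbers to shared litters or days, and p-values measure the spread between these samples.

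In each tissue the lowest 10% of genes by mean were left out, and UCMS was compared with control by limma 3.58.1 (R 4.3.3; linear fit, moderated with a trend), with Benjamini-Hochberg adjustment over all genes and a threshold of 0.05. The same test was used for the mean of the 3 brain regions per animal and for differences between tissues within animals. Single values also had an exact two-sided permutation test over 12870 splits (8 against 8; smallest possible p 0.000155) or 11440 (7 against 9). Intervals are 95%. Tests were checked on simulated data with independent genes and planted differences larger than any of a tested member in the brain. That check does not cover smaller differences or correlated members. Members not tested were Ndufa4l2 (brain), Cox6b2 (hypothalamus) and Atp5sl, Ndufb3, Ndufb10, Ndufs3 and Ndufv3 (blood). In 24 members over 10% of 50-base stretches also occur in transcripts of other genes (GENCODE M21), among them Atp5l (84.8%), Atp5o (47.6%) and Cox7c (23%). Gene positions and transcript GC come from the same annotation.

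Named members were taken from those with an unadjusted p under 0.05 (or the 3 smallest) and the extremes of each complex. Others came from a short list of core subunits and isoforms. Not all of these are named for each tissue. Up to 3 genes a list were named by p. Members and lists were chosen with earlier results of these data known. Alternatives were other filters, no trend, cyclic loess, array weights, a replicate block, marker covariates and leaving out libraries.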

Additional observations from a re-analysis of the deposited data

Results flagged for a closer look

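In 172 groups of 7 to 9 libraries, 21 had a highest or lowest library far from the others by Dixon's test, which chance gives in about 1 in 20 groups. Of these, 11 lie in the 2 brain libraries whose transcripts parted by GC content. In hippocampus UCMS 3 the low values were Ndufs1 at 5.007 (next library 5.471), Ndufa4 at 7.259 (7.525), Sdha at 6.768 (6.983), Cox5a at 6.828 (7.124), Cox7a2 at 7.1 (7.459) and Ndufc1 at 5.252 (5.789). The high values there were Uqcrc1 at 7.076 (6.912) and Cox8a at 10 (9.465). In prefrontal cortex UCMS 5 the low values were Ndufs1 at 4.937 (5.197), Cox7a2 at 7.129 (7.516) and Atp5s at 3.149 (3.735).

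Other libraries of hippocampus gave low values as well, Ndufs1 at 5.407 (5.497) and Atp5b at 9.106 (9.186) in control 7 and Atp5a1 at 8.259 (8.425) in UCMS 6. In prefrontal cortex UCMS 8 Cox6c was at 6.981 (7.242). In hypothalamus Cox6c was high in UCMS 7 at 7.673 (7.459), Cox7a2 high in control 5 at 8.147 (7.783), and Ndufa4l2 low in UCMS 6 at 1.18 (2.685). In whole blood Atp5b was low in control 3 at 5.877 (6.419) and Cox7b in control 7 at 3.559 (4.283). The mean deviation of all members in control 7 was -0.41, next to -0.067 in the nearest control.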

How the results depend on the processing

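The median difference of the members kept its sign under every alternative run in hippocampus (-0.071 to -0.037), whole blood (0.016 to 0.11) and the mean of the brain regions (-0.036 to -0.0040), and changed sign in prefrontal cortex (-0.0046 to 0.025) and hypothalamus (-0.032 to 0.0069). No gene passed the adjusted test under any alternative except in whole blood, where leaving out libraries in turn gave 0 to 1, the 1 without UCMS 2. Genes at an unadjusted p under 0.05 went from 414 to 927 with array weights and 688 without UCMS 6 in hippocampus, and from 308 to 483 with the myelin sum as a covariate in hypothalamus. In whole blood they went from 859 to 354 with the red cell sum as a covariate. For the mean of the brain regions they went from 489 to 304 without UCMS 3, 313 without UCMS 5, 892 without UCMS 6 and 926 without the animals with hemoglobin-rich libraries. Alternatives that left out libraries standing apart by GC or by mean level, members with shared stretches or members that are not core subunits were chosen after seeing the data.

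Replicate numbers did not clearly pair the samples: correlations of same-numbered deviations ran from -0.45 to 0.55. In prefrontal cortex 6 of 8 pairs were above 0.1, and 2 controls correlated best with their own number. The pairs above 0.1 were 3 of 8 in hippocampus, 3 of 8 in hypothalamus and 2 of 7 in blood. With the replicate number as a block, 0 genes passed the adjusted test in every comparison, and the medians were -0.048 in hippocampus and 0.085 in whole blood. With unchanged differences of -0.12 and -0.090, the unadjusted limma p became 0.0524 for Cox6c and 0.10 for Atp5c1 in hippocampus. In whole blood it became 0.0573 for Atp5b at 0.33 and 0.0917 for Atp5e at 0.28. No block could be fitted for whole blood minus hippocampus. Depth is unknown from normalized values, so counting error could not be given.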
